A study of Mus musculus with 2 samples.

Results

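Potassium channel genes were compared in mouse embryonic fibroblasts (MEFs) with and without the Lats2 kinase. The genes were taken as every name on the array that begins with Kcn, the official prefix for potassium channel subunits, which gave 85 of the 27579 gene names with a value on both arrays. They were represented by 124 probes on 142 spots of each array. The group was chosen on measured values, since ratios from the same arrays were already known when it was set up. The difference between the RNAs is therefore given as a description.

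Potassium channels let K+ ions cross the membrane and set its resting potential. Most are built from pore-forming alpha subunits, which open with voltage (Kv) or with internal calcium, pass K+ more easily inward than outward (Kir) or leak it at rest (the tandem-pore K2P channels). Auxiliary subunits, among them the Kvbeta proteins, the KChIP proteins and the BK beta subunits, bind the pore and change its gating or its delivery to the surface. Silent alpha subunits such as Kcnf1 form no working channel alone and act only when assembled with subunits of the Kv2 group. In fibroblasts potassium currents are known to take part in volume control, proliferation and the response to stretch.

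The study compared RNA from untreated MEFs of C57BL/6J mice, LATS2-/- (KO) against LATS2+/+ (WT), of which the genotype fields of the labels spell the gene LAT2. Cy5 marked the KO RNA and Cy3 the WT RNA on the first of 2 Agilent arrays, and the labels give the reverse for the second. The number of embryos, their age, the passage of the cells and whether both arrays used the same RNA preparation are not given in the sources used here. The arrays were counted as 1 replicate, so the spread between them covers hybridisation and dye error and says nothing of the spread between animals.

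The series as a whole was checked first. Each array had 45018 spots, of which 0.899% and 0.871% were left out for an outlier flag. Pearson's r between the arrays was 0.899 over the log2 ratios of 40875 probes, a description across probes and not across replicates. A single probe varied between them with an SD of 0.133 log2 units. The targeted gene went against its label at 3 of its 4 probes. Lats2 had a ratio of KO over WT between 0.56 and 0.63 at 3 of its 4 probes and of -0.35 at the last, whereas Lats1 had -0.03. The 3 higher probes lie together on chromosome 14, between 56644080 and 56645305 (NCBI36, mm8), and the lower one apart from them at 56676512 to 56676571. Whether these probes lie in the deleted part of the gene is not given in the sources used here. Since the check did not bear the labels out, the names KO-labelled and WT-labelled RNA are used below, and every direction rests on those labels. Fibroblast markers were present, with 12 of 13 measured markers well above background in the KO-labelled RNA and 13 in the WT-labelled RNA. The exception, Vim, was read from a dim probe because its bright probe carried an outlier flag. No channel probe lost its value in that way. No endothelial marker of 6 was well above background, and of 9 neuronal markers 2 were (Syn1 and Tubb3), with none of the others, Dcx, Snap25 and Syp included, above it in either RNA.

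A probe was taken as well above background by the flag of the image analysis software (Feature Extraction), and each gene was read from its brightest probe by mean intensity. On this basis 23 of the 85 potassium channel genes (27.1%) stood well above background in 1 RNA or both, on both arrays, against 57.6% of all genes. Of these, 16 were so in both RNAs, 4 only in the KO-labelled RNA and 3 in full only in the WT-labelled RNA. The other 62 genes were not well above background, and their mean ratios lay between -0.21 and 0.21. Their levels cannot be ordered. In bulk RNA, fewer cells that use a channel and less of its transcript per cell cannot be told apart.

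The call asked for a ratio of 2-fold or more in 1 direction on both arrays, with the brighter RNA well above background on both. In all, 3 genes were called higher in the KO-labelled RNA and 0 lower, out of the 23. Over all 15877 genes well above background, 2.95% were called higher and 2.61% lower, which is given for reference only because the group was chosen on this contrast. The genes called were Kcnab1, Kcnf1 and Kcnip1, a Kvbeta subunit, a silent alpha subunit and a KChIP protein, so none of them forms a channel pore on its own. Just inside the threshold lay Kcnip1 with a ratio of 1.03 on its lower array. Just outside lay Kcnab2, at -0.97 on its weaker array, and Kcnk3, at -0.88.

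**Figure D1:**
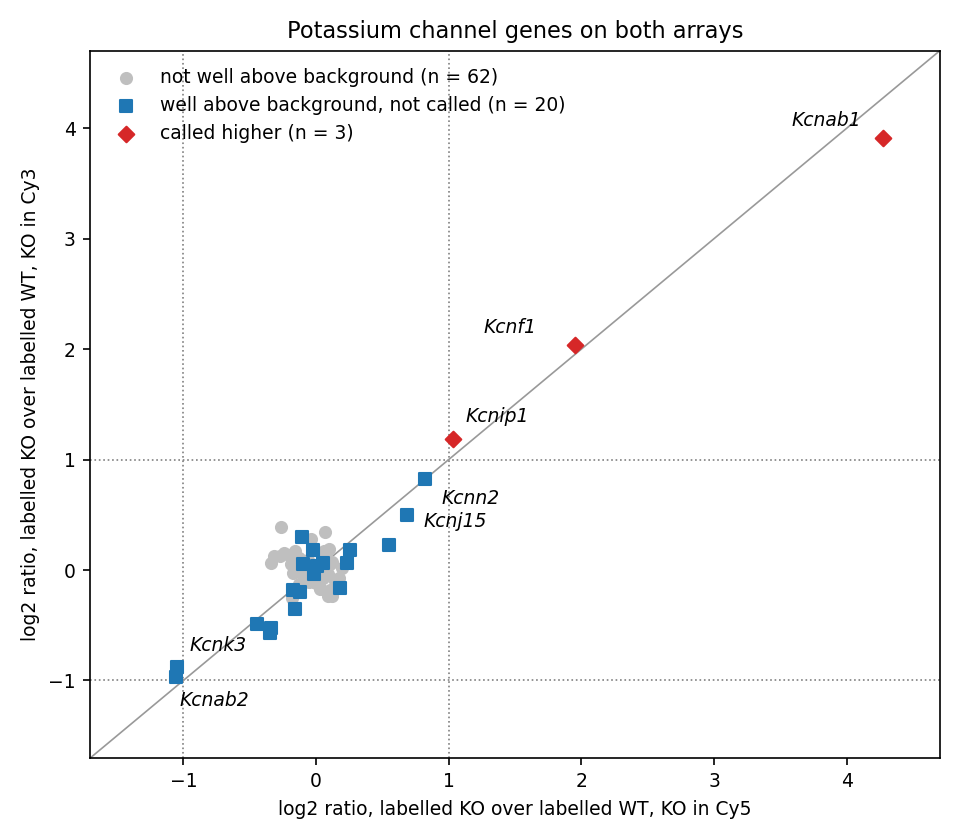
Log2 ratio of the KO-labelled RNA over the WT-labelled RNA for the 85 potassium channel genes, with the first array (KO in Cy5) on the x axis and the second (KO in Cy3) on the y axis. Dotted lines mark 2-fold and the grey line equality; Kcnab1, Kcnf1 and Kcnip1 lie past 2-fold on both arrays, and the 62 genes not well above background gather around 0.

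Over the 23 genes the mean ratio was above 0 in 13 and below 0 in 10. The median was 0.02 (-0.02 on the first array and 0.06 on the second array), against -0.0037 for all genes above background. The median size of the ratio, whatever its sign, was 0.25 for the channel genes and 0.23 for all genes above background. The ratio went the same way on both arrays in 19 genes, 10 higher and 9 lower, and in opposite ways in 4. It was larger than the SD of a single probe (0.133) in 16 genes, 8 in each direction. The median size over all genes above background, 0.23, also passed that SD, so passing it does not set the channel genes apart. The shares of all genes for these counts are not given here. The arrays differed by 0.16 at the median gene and by at most 0.40.

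With the offset of 50 units used here, the Kvbeta family held both the highest and the lowest ratio of the channel genes above background, although in Feature Extraction's own ratio the K2P gene Kcnk12, not well above background in the KO-labelled RNA, lay lower still. These cytosolic proteins sit under Kv1 channels, are related to aldo-keto reductases and can speed inactivation of the current. All 3 members were well above background in both RNAs. Kcnab1 (NM_010597) had a mean signal of 7899 units in Cy5 and 2661 in Cy3 in the KO-labelled RNA, and of 143 in Cy3 and 404 in Cy5 in the WT-labelled RNA. After normalisation the log2 intensities were 12.32 and 12.02 in the KO-labelled RNA and 8.05 and 8.11 in the WT-labelled RNA. Both values of the KO-labelled RNA were far above both values of the WT-labelled RNA, whichever dye was used. A call on both arrays all but fixes that order. The log2 ratio was 4.27 on the first array and 3.91 on the second array, which gave a mean of 4.09, or 17.0-fold (SD between arrays 0.26 on the log2 scale). The probe lies on chromosome 3 at 65466011 to 65466070 (NCBI36, mm8).

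A second Kcnab1 probe lay close to background. It maps within 65390118 to 65407372 on the same strand, a span far longer than a probe, as for a probe that crosses an intron. Its log2 intensities were 6.86 and 6.81 in the KO-labelled RNA and 6.26 and 5.94 in the WT-labelled RNA, where it was not well above background on either array. Its ratio was 0.60 and 0.88, and on the mean of both arrays it gave at least 1.67-fold higher signal in the KO-labelled RNA. Both probes were thus higher on both arrays, and since the second gives only a bound, how far they differ was not measured. Which transcripts each probe detects was not analysed here. With the mean over both probes the ratio of Kcnab1 was 2.41.

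Kcnab2 (NM_010598, chromosome 4, 151235030 to 151235089), the member best known from brain, went the other way. Its log2 intensities were 6.25 and 6.58 in the KO-labelled RNA and 7.31 and 7.54 in the WT-labelled RNA. They did not overlap, which ratios near 2-fold on both arrays all but fix. The ratio was -1.06 on the first array and -0.97 on the second array, with a mean of -1.01, or 49.6% of the level in the WT-labelled RNA. It missed the call on 1 array only. Kcnab3 (NM_010599, chromosome 11), the last member, had intensities of 6.77 and 6.82 against 6.93 and 7.17. Its ratio of -0.25 (-0.16 and -0.35) was larger than the SD of a single probe and short of 2-fold. The only potassium channel family with every measured member above background therefore held 1 gene called higher, 1 gene just short of the call in the other direction and 1 with a small negative ratio.

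The Kvbeta subunits act with Kv1 (Shaker) channels, and 0 of the 6 measured Kv1 genes were well above background. Their ratios ran from -0.07 to 0.14. One probe outside the Kcn prefix, described in the files as a full Kv1 channel transcript, is given among the other observations.

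The windows of 250 bases before the annotated starts of Kcnab1 and Kcnab2 are shown because these relatives had ratios of opposite sign, near or past 2-fold on both arrays. Sequences are from RefSeq, build GRCm38.p6, written 5′ to 3′ in the direction of the gene up to the start site, with each CpG dinucleotide in capitals. RefSeq lists 3 starts for each gene, and which of them the fibroblasts used was not measured.
Kcnab1, chr3:64948962-64949211, plus strand: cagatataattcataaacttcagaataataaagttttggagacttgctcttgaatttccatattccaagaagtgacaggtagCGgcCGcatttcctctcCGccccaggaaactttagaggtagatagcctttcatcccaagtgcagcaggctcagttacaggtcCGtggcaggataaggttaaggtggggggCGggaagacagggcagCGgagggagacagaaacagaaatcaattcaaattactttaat
Kcnab1, chr3:65108764-65109013, plus strand: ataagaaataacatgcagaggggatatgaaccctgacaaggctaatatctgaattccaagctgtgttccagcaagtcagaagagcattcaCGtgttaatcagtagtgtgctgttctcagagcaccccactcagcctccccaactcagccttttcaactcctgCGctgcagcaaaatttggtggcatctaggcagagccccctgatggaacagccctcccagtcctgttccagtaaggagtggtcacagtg
Kcnab1, chr3:65187853-65188102, plus strand: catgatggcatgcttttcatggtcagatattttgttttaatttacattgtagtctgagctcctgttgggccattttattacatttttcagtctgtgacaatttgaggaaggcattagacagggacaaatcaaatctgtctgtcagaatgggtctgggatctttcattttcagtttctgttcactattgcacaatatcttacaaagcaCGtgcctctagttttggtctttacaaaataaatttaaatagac
Kcnab2, chr4:152448856-152449105, minus strand: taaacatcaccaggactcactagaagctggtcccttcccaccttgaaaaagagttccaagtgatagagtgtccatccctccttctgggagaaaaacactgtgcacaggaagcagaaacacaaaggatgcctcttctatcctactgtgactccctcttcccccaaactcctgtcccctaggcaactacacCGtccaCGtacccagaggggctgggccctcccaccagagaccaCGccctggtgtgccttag
Kcnab2, chr4:152452946-152453195, minus strand: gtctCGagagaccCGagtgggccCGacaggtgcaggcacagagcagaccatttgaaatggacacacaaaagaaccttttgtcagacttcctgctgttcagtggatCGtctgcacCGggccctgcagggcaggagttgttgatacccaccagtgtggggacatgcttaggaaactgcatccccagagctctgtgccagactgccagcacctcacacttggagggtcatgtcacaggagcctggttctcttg
Kcnab2, chr4:152477550-152477799, minus strand: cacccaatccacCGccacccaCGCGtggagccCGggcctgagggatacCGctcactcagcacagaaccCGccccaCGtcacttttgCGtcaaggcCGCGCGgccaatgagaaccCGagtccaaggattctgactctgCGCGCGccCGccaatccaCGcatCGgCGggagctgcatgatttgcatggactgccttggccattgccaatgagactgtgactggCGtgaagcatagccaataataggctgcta

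The 3 Kcnab1 windows held 6, 2 and 1 CpG, and the 3 Kcnab2 windows, in the order printed, 3, 5 and 20. The last window of Kcnab2 had the highest ratio of observed to expected CpG of the 6, 0.868. Over all 32851 windows of the table the median was 6 CpG.

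Kcnf1, an electrically silent alpha subunit, was the second gene called. In the KO-labelled RNA its normalised log2 intensity was 11.02 with Cy5 and 11.15 with Cy3, and in the WT-labelled RNA it was 9.07 with Cy3 and 9.11 with Cy5. The readings of the RNAs did not overlap, which a call on both arrays all but fixes. Each RNA gave nearly the same value with either dye. The log2 ratio was 1.95 and 2.04, with a mean of 1.99 (SD between arrays 0.06), or 3.98-fold. The probe (NM_201531) lies on chromosome 12 at 17198201 to 17198260, in minus orientation. A second probe that carries the name Kcnf1 was designed on a cDNA (AK043920) at 17202466 to 17202525 in plus orientation. Neither RNA was well above background at this probe, with ratios of -0.02 and -0.16. A ratio at background is near 0 by construction, so how far the probes differ was not measured. The mean over both was 0.95, which is below the call, and since the probes lie in opposite orientations they need not report the same transcript.

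None of the other 8 measured genes of silent subunits was well above background, and the family's lowest ratio was -0.10.

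Kcnf1 has a single annotated start in RefSeq, shown in the same way. The window held 1 CpG, with an observed over expected ratio of 0.0618.
Kcnf1, chr12:17176889-17177138, minus strand: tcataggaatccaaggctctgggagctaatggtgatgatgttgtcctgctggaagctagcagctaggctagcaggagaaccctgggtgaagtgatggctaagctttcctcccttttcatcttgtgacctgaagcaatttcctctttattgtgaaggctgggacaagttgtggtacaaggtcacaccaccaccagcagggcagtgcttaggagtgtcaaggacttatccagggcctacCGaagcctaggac

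KChIP proteins are calcium-binding subunits of Kv4 (Shal) channels, and 1 of them, Kcnip3, is also known as the transcriptional repressor DREAM. Kcnip1 (NM_027398, chromosome 11, 33530511 to 33530570) was the third gene called. Its normalised log2 intensities were 7.34 and 7.05 in the KO-labelled RNA and 6.31 and 5.86 in the WT-labelled RNA. In the WT-labelled RNA it was not well above background on either array, with raw signals of 44.9 and 51.0 units over background medians between 30 and 36. The ratio was 1.03 and 1.19 (mean 1.11), and with the bound in place of the dim signal Kcnip1 had at least 2.13-fold higher signal in KO-labelled RNA. A bound here sets the mean of the brighter RNA against the higher of the probe's own signal and the lowest signal of any probe well above background. Both sides are averaged over the arrays, so 1 array alone can fall short of the bound.

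Kcnip3 (chromosome 2) was lower, by less than 2-fold. Its brighter probe had intensities of 6.54 and 6.48 in the KO-labelled RNA and 6.88 and 7.01 in the WT-labelled RNA, and a ratio of -0.43 (-0.34 and -0.52). The dimmer probe gave -0.27 (-0.32 and -0.22), in the same direction. Kcnip2 and Kcnip4 were not well above background, and neither was any of the 3 Kv4 genes, whose ratios lay between -0.07 and 0.21.

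Kcnip1 has 3 annotated starts, shown in the same way because it completes the called genes. They held 3, 12 and 6 CpG.
Kcnip1, chr11:33680683-33680932, minus strand: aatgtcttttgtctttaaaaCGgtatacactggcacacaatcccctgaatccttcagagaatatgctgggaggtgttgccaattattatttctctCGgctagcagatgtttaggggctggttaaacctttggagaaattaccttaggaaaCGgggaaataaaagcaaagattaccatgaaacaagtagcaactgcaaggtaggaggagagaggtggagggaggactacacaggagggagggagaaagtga
Kcnip1, chr11:33843687-33843936, minus strand: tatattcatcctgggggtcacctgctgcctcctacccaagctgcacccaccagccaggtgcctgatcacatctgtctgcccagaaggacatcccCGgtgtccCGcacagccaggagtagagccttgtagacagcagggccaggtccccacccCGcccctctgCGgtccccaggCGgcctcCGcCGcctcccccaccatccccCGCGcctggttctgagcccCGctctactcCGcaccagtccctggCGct
Kcnip1, chr11:33993194-33993443, minus strand: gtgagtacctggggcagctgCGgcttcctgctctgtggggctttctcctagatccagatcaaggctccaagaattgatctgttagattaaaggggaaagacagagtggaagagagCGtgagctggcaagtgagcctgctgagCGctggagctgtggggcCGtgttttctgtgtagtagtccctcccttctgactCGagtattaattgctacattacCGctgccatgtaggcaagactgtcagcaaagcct

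Short sequence features of these windows were counted for all channel genes with an entry in the table, 62 of the 85, with 87 windows. The motif of TEAD factors, the DNA partners of the Lats-regulated coactivators YAP and TAZ, was searched as GGAATG on both strands. It was found in 12.6% of all windows, in 14.9% of the channel windows and in 0 of the 7 windows of the 3 called genes. The AP-1 motif, searched as TGANTCA on both strands, was found in 6.75% of all windows, 4.60% of the channel windows and 0 of the 7. That these letters were not found in these windows says nothing of binding elsewhere. The median GC content was 52.4% over all windows and 58.8% over those of channel genes, with medians of 6 and 8 CpG. It was 58.4% and 7 CpG for the channel genes above background, and 58.8% and 8 CpG for those that were not. The 7 windows of the called genes had medians of 50% GC and 3 CpG.

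**Figure D2:**
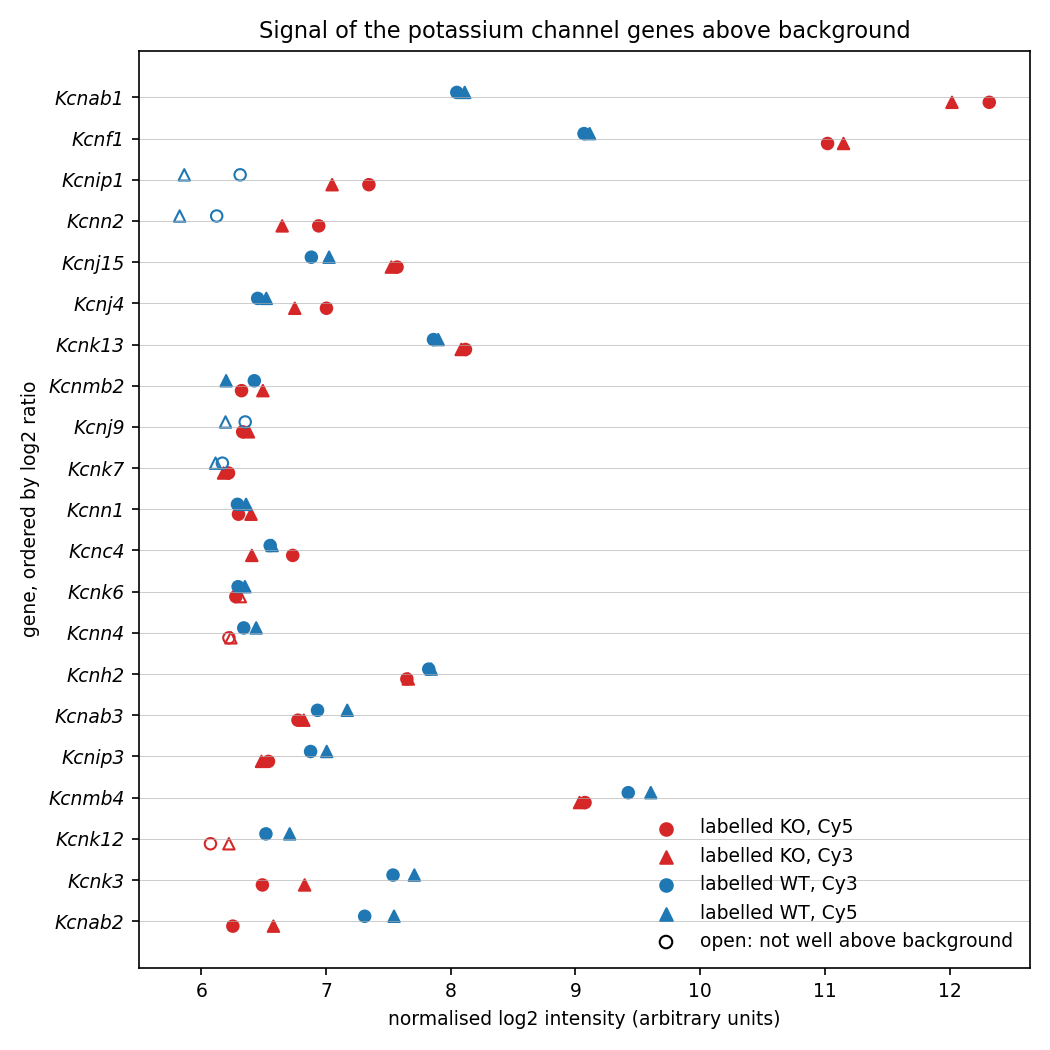
Normalised log2 intensity (arbitrary units) of 21 of the 23 channel genes well above background in at least 1 RNA, 1 row a gene in the order of the log2 ratio, with circles for the first array (KO in Cy5) and triangles for the second (KO in Cy3). Open symbols are not well above background; for Kcnab1, Kcnf1 and Kcnip1 both red symbols (labelled KO) lie to the right of both blue ones (labelled WT), and for Kcnab2 and Kcnk3 to the left. Ratios near or past 2-fold on both arrays all but fix that order. Intensities of different genes come from different probes and are not comparable with each other.

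Among the pore-forming subunits other than the silent ones no gene was called with the offset of 50. With less compression of dim signals Kcnn2 was called higher and Kcnk3 lower, as given with the other settings below. The K2P channels, which carry the background current that holds the membrane at rest, had 5 of 11 genes above background. Kcnk3, also called TASK-1, a channel that closes in acid, had log2 intensities of 6.49 and 6.83 in the KO-labelled RNA and 7.54 and 7.71 in the WT-labelled RNA. The readings of the RNAs, each from 1 replicate, did not overlap, which ratios near 2-fold on both arrays all but fix. Its ratio was -1.05 and -0.88, with a mean of -0.96, or 51.3% of the level in the WT-labelled RNA. A second Kcnk3 probe on chromosome 5 went the same way with a ratio of -0.38 (-0.42 and -0.34).

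Kcnk12, a K2P subunit for which currents are hard to record alone, was well above background in the WT-labelled RNA only. Its intensities were 6.07 and 6.22 in the KO-labelled RNA and 6.52 and 6.71 in the WT-labelled RNA. On the mean of both arrays it was at least 1.38-fold lower in the KO-labelled RNA. Kcnk13, its close relative, was above background in both, with 8.12 and 8.08 against 7.86 and 7.90. It was slightly higher in the KO-labelled RNA, by 0.26 and 0.18. Kcnk6 and Kcnk7 had ratios of -0.03 and 0.06, both within the SD of a single probe. The other 6 K2P genes were not well above background.

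Inward rectifiers let K+ in more readily than out and keep the membrane near the potassium equilibrium. They were the largest family, with 14 genes, of which 3 were above background. Kcnj15 had log2 intensities of 7.57 and 7.52 in the KO-labelled RNA and 6.88 and 7.02 in the WT-labelled RNA. Its ratio was 0.59 (0.69 and 0.50), short of 2-fold on both arrays. A second Kcnj15 probe on chromosome 16 was not well above background and had a ratio of -0.01. Kcnj4, a strong inward rectifier, had 7.003 and 6.75 against 6.45 and 6.52, and a ratio of 0.39 whose arrays differed (0.55 and 0.23). Kcnj9, a subunit of the channels opened by G proteins, was close to background and had ratios of -0.02 and 0.18. It was well above background only in the KO-labelled RNA. Its bound of 1.06-fold rests on the mean of arrays with opposite signs and shows no difference. All 3 means were above 0, of which that of Kcnj9 lay within the SD of a single probe.

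Calcium-activated channels couple internal calcium to K+ efflux, and their family, with the sodium-activated channels, had 3 of 8 genes above background. Kcnn2, a small-conductance (SK) channel, was the best replicated member because its probe was spotted 10 times on each array. Its log2 intensities were 6.94 and 6.65 in the KO-labelled RNA and 6.12 and 5.83 in the WT-labelled RNA, where it was not well above background on either array. The ratio was 0.82 on each array, with an SD between spots of 0.08 and 0.09. Kcnn2 was at least 1.72-fold higher in the KO-labelled RNA. The second Kcnn2 probe, on the same chromosome and not well above background, had ratios of 0.12 and 0.00. Kcnn1, of the same SK group, was at 0.02. Kcnn4, the intermediate-conductance channel that is known from proliferating fibroblasts and immune cells, was well above background in the WT-labelled RNA only, at -0.16 (-0.12 and -0.20), with a bound of 1.12-fold lower.

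The large-conductance BK channel takes beta subunits from the Kcnmb family, in which 2 of 4 genes were above background. Kcnmb4 was bright for this group, with log2 intensities of 9.08 and 9.03 in the KO-labelled RNA and 9.42 and 9.60 in the WT-labelled RNA. Both values of the KO-labelled RNA were below both of the WT-labelled RNA, and the ratio was -0.46 (-0.35 and -0.57). The share of all genes whose readings separate in this way is not given here. Kcnmb2 had ratios of opposite sign on the arrays, -0.10 and 0.29, the widest spread between arrays among the 23 genes.

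The remaining voltage-gated families showed small differences. Kcnh2, the ERG channel of the ether-a-go-go family, was above background in both RNAs, at 7.65 and 7.66 against 7.82 and 7.84, and its ratio was -0.18 on each array. The other 6 genes of that family were not well above background. Kcnc4, a Kv3 (Shaw) channel, was above background in both RNAs with a mean ratio of 0.01, and it changed sign between the arrays (0.18 and -0.16). None of the 5 Kv7 (KCNQ) genes and none of the 5 Kcne peptides, small single-pass subunits of Kv7 and ether-a-go-go channels, was well above background. Their ratios lay between -0.07 and 0.01 and between -0.21 and 0.10.

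**Figure D3:**
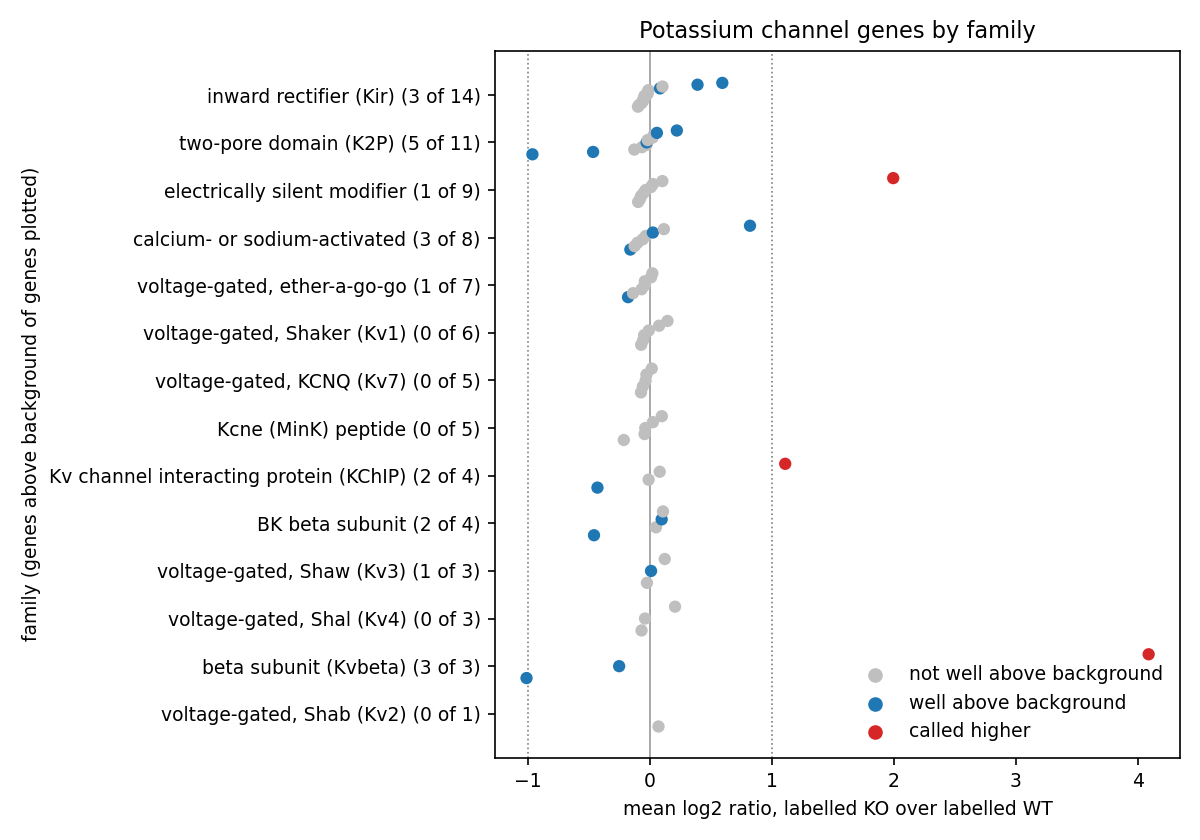
Mean log2 ratio of the KO-labelled RNA over the WT-labelled RNA for 83 of the 85 channel genes, by family, with the number of plotted genes well above background of those plotted. Grey points are not well above background and dotted lines mark 2-fold; the 3 genes called (red) belong to the Kvbeta, silent and KChIP families.

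Probes of 1 gene did not always give the same value. Of the 33 channel genes with several probes, 11 had at least 1 well above background. In 2 of these, Kcnab1 and Kcnf1, both among the 3 called, the ratios as read lay more than 1 log2 unit apart. The second probe was not well above background in the WT-labelled RNA for Kcnab1 and in either RNA for Kcnf1, which compresses its ratio, so these gaps do not measure a disagreement.

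The size of the ratios, and the number of calls in the lower direction, depended on how the signals were processed. The offset of 50 units added before taking logs pulls dim signals together by construction. In Feature Extraction's own ratio, which has its own background correction without that offset and its own dye normalisation in place of loess, 4 genes were past 2-fold higher on both arrays and 4 lower. Those higher were Kcnab1, Kcnf1, Kcnip1 and Kcnn2, and those lower were Kcnab2, Kcnip3, Kcnk12 and Kcnk3. On the same scale 5.93% of all genes above background were past 2-fold higher and 5.45% lower. The ratios of bright Kcnab1 and Kcnf1 moved to 4.53 and 2.14, beyond the arrays' own spread. Those of Kcnab2 and Kcnk3, above background in both RNAs, went to -2.42 and -1.99. Those of dim Kcnip1 and Kcnn2 read 3.996 and 4.33, but the WT-labelled RNA was not well above background for either, so these are ratios to background and only the bounds given with each gene are measured. With the offset alone changed, to 10, Kcnn2 was past 2-fold higher (1.73) and Kcnab2 (-1.60) and Kcnk3 (-1.40) lower on both arrays. With that offset 4.11% of all genes above background were past 2-fold higher and 3.58% lower. Kcnip3 went to -1.48 in Feature Extraction's ratio, and Kcnk12 read -2.71 against a KO-labelled RNA at background, but neither was past 2-fold on both arrays with the offset of 10. Kcnn4, at -1.09, was not past 2-fold on both arrays in any of the 3. The sign of the mean ratio differed between settings, single arrays included, in 5 of the 23 genes, Kcnc4, Kcnj9, Kcnmb2 and Kcnn1 among them, all within the SD of a single probe.

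**Figure D4:**
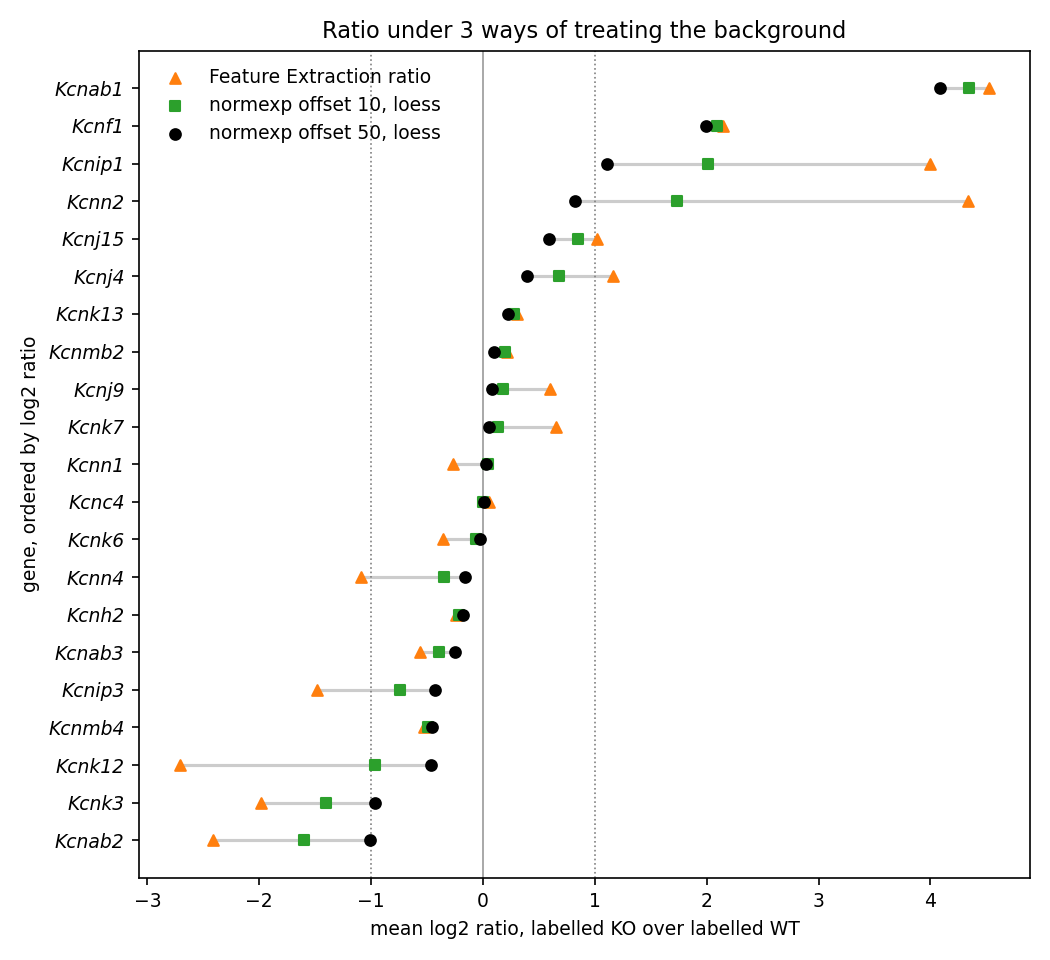
Mean log2 ratio of 21 of the 23 channel genes under 3 treatments of the signals: normexp with an offset of 50 (black circles), with an offset of 10 (green squares) and Feature Extraction's own ratio (orange triangles). Dotted lines mark 2-fold; the 3 values of Kcnab1 lie within 0.5 of each other, as do those of Kcnf1, whereas those of Kcnip1, Kcnn2 and Kcnk12, each not well above background in 1 RNA, spread the most.

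Other genes that move K+ or partner with its channels were counted from a list of 48 genes outside the Kcn prefix, of which 46 were measured and 25 stood well above background in 1 RNA or both. In this list 3 genes were called higher in the KO-labelled RNA and 0 lower, and the median of the 25 ratios was 0.11. The list too was drawn up with earlier results known, and the shares over all genes above background were 2.95% higher and 2.61% lower. Atp1b1, a beta subunit of the Na+/K+ pump, had log2 intensities of 10.03 and 9.69 against 8.60 and 8.41, and a ratio of 1.36 (1.43 and 1.28). Tmem175, a potassium channel of endosomes and lysosomes with no Kcn name, had 10.31 and 10.17 against 8.91 and 8.98, and a ratio of 1.29 (1.40 and 1.19). Wnk4, a kinase that regulates cation-chloride cotransport, had 8.48 and 8.44 against 7.16 and 7.12, and a ratio of 1.32 on each array. In all 3 the readings of the RNAs did not overlap, which a call on both arrays all but fixes. The call of each was lost with median centring in place of loess, where the means stayed at 1.37, 1.30 and 1.30 but 1 array fell below 2-fold. Tmem175 also lost its call with the mean over all its probes, where its ratio was 0.64. The beta subunit Atp1b3 had a ratio of -0.29, and the pump regulator Fxyd5 one of -0.66, the lowest of the list. Among the cation-chloride cotransporters, Slc12a2 was at 0.62, Slc12a7 at 0.65, Slc12a9 at 0.36 and Slc12a4 at 0.33.

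Markers of the excitable cells in which several of these channels are best known were read beside the calls. Over all genes above background 2.95% were called higher and 2.61% lower, and single calls in such short lists describe no cell type. Of 8 glial markers 1 was called, Mbp, higher by 2.29 (2.56 and 2.03), whereas neither RNA was well above background for Gfap, Olig1 or Olig2. The log2 of the summed intensities of the glial markers was 11.87 in the KO-labelled RNA and 10.27 in the WT-labelled RNA. That of the neuronal markers was 13.63 and 13.81. Each sum mostly reflects its brightest probe and does not describe the markers as a set. Mbp alone had 11.76 and 11.46 against 9.21 and 9.44, and Syn1 alone had 13.45 and 13.45 against 13.65 and 13.63. Of 9 skeletal muscle markers 0 were called and 6 were not well above background, Myod1 and Myog among them. Of 7 smooth muscle markers 6 were above background and 1 was called, Cnn1, with a ratio of -2.11. The list was mixed, with Lmod1 at -0.54, Smtn at -0.53 and Myh11 at -0.46, but Acta2 at 0.79 and Tagln at 0.13. Of 8 cardiomyocyte markers 5 were above background and 0 were called, and of 6 epithelial markers the numbers were 2 and 0. Of 5 macrophage markers 3 were above background and 1 was called, Cd14, with a ratio of -1.05. Among the fibroblast markers Postn was called, with a ratio of -1.69. It was the lowest of that list, whose ratios reached 0.89 at Fn1 and had a median of -0.45. The part of other cell types in the channel ratios was not tested.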

How the data were processed

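Per the file headers, the arrays were read with Agilent Feature Extraction (version 10.5.1.1 in the submitters' processing notes), and for each spot the authors deposited a mean signal and a local background median, both as intensity (arbitrary units). The deposited scanner tables also hold a log10 ratio of Cy5 over Cy3 after the software's background correction and dye normalisation, together with a score that flags each spot as well above background or as an outlier. A further deposited table gives a log2 ratio per probe, which had the direction of KO over WT on both arrays. Coordinates are those of the files (NCBI36, mm8), and the place of a probe within exons was not analysed here.

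Background correction (normexp, offset 50) and loess normalisation of each array used limma 3.58.1 under R 4.3.3, and outlier spots were left out. Spots of a probe were averaged, the exchanged array was turned, and both arrays were averaged. Channel levels were taken after Aquantile normalisation. Probes with several spots counted as well above background where a share of 0.5 of the spots was flagged so. Gene names are those of the array, and 107 of the 124 probes matched a RefSeq accession in a GRCm38.p6 table, with 0 under another symbol. Members, families and lists were chosen with earlier results of these data known. Channel genes well above background were named, with the called genes of the list of partners and Lats2 and Lats1, and some genes that meet this rule are not reported here.

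The calls are descriptions and rest on no test, since each genotype has 1 replicate. The number of arrays limits the precision. Alternatives were Feature Extraction's ratio, the deposited table, median centring, an offset of 10, no background subtraction, the mean over probes, a flag required in both RNAs, outlier spots kept, each array alone and the methods' t-test with p under 0.05, unadjusted and after Benjamini-Hochberg adjustment. That test treats both arrays as replicates, so its p covers hybridisation and dye error only, and nothing is supported with it. Tables and plots were made with matplotlib 3.10.9, statsmodels 0.14.6, scipy 1.17.1, pandas 2.3.3 and numpy 2.4.6 under Python 3.11.15.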

Additional observations from a re-analysis of the deposited data

How the results depend on the processing

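Recomputing gave 109 values, of which 78 stayed within the arrays' own spread (counts: within 1.5 times) and 31 did not. No called gene changed sign. The count of channel genes called lower, 0 with the offset of 50, was 4 in Feature Extraction's ratio. The deposited table gave the same value as that ratio in every result, so it is no separate setting, although both count in the 109. The count was 2 where the offset was 10, 2 where no background was subtracted, and between 0 and 2 on single arrays. Over all genes above background the share called lower was 2.61% with the offset of 50 and 5.45% in Feature Extraction's ratio. It was 3.58% with the offset of 10 and 3.07% without background subtraction. On the array with KO in Cy5 alone it was 2.94%, and on the other 3.39%. The 2 called lower on the array with KO in Cy5 alone were Kcnab2 and Kcnk3. The count called higher was between 2 and 4 under the other settings, and 3 on each single array. Over all genes above background the share called higher ran from 1.57% (median centring) to 5.93% (Feature Extraction's ratio) under those settings. The methods' t-test takes the dye-swapped arrays of 1 replicate for replicates, on a contrast already known, so its calls are no support: 3 higher and 1 lower (Kcnab2) at its unadjusted threshold, and 0 of all genes after Benjamini-Hochberg adjustment. A flag required in both RNAs left out Kcnip1, and the mean over probes left out Kcnf1. Partner and transport genes called higher were 0 with median centring, where the share over all genes was 1.57%, and 0 after that adjustment. In both the deposited table and Feature Extraction's ratio 4 were called higher, with Fxyd6 (1.56) added, and 1 lower (Amigo1, -1.90). The shares over all genes were 5.93% and 5.45% there. The median of the channel genes above background stayed between -0.02 and 0.06. A smaller offset compresses dim ratios less by construction; the cause of the other changes was not tested. Signal over background limits the 62 genes not well above background, for which a difference was not detectable here. No paired analysis was possible because KO and WT have 1 replicate each.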

Other observations

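Probes for potassium channels outside the Kcn prefix were looked for in the descriptions and accessions of the array. A probe without a gene symbol, described in the files as a complete voltage-gated channel of the Kv1 group, was well above background in both RNAs on both arrays, with log2 ratios of 0.34 and 0.09 on the first and second array (mean 0.22). A probe under a clone name, whose accession RefSeq gives to Kcnh4, a channel of the ether-a-go-go family, was not well above background in either RNA and had ratios of 0.08 and 0.04. Neither was called, and neither is among the 85 genes. The second probe that was spotted 10 times, for the inward rectifier Kcnj6, was not well above background and had ratios of -0.01 and -0.03, with an SD between spots of 0.09 and 0.05.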
